A study of Homo sapiens with 6 samples.

Results

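The 48 genes described here encode the machinery that separates chromosomes in mitosis: the kinases, cyclins and phosphatases that drive entry, the spindle checkpoint and the anaphase trigger, the mitotic kinesins, the kinetochore with the chromosomal passenger complex, and proteins of the spindle, chromosome and cleavage furrow. They form a list of named mitosis genes with no threshold on a measured value, drawn up with earlier results of these data known. Each of the 48 matched 1 identifier among the 58825 genes of the deposited table, and all 48 passed the filter on low counts. The RNA came from FaDu, an established line of hypopharyngeal squamous carcinoma. In 3 libraries the cells carried a short hairpin RNA against NSUN2 (shNSUN2), an RNA methyltransferase that places 5-methylcytosine on tRNAs and some mRNAs, and in 3 libraries they carried no hairpin (FaDu). The comparison has no control hairpin: effects of losing NSUN2, of carrying a hairpin and of its delivery cannot be told apart. The labels do not say whether replicates were separate cultures or whether the hairpin cells were 1 clone, so p-values measure the spread between these libraries, which may be technical.

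In a dividing cell these genes are switched on late, in G2 and mitosis, when the B-MYB and FOXM1 transcription factors act with the MuvB complex on promoters that carry a cell cycle homology region (CHR). CDK1 with cyclin B starts mitosis, and Polo-like and Aurora kinases build the spindle. The checkpoint holds the anaphase-promoting complex (APC/C) in check until every kinetochore is attached, after which securin and cyclin B are destroyed and separase cuts cohesin. In bulk RNA, a change in the share of cells in G2 and mitosis and a change in RNA per such cell cannot be told apart.

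Levels are in CPM, estimated counts scaled to a common library size after TMM normalization, which corrects library totals for composition. Totals were 53612358 to 72788971 estimated counts per library. NSUN2 itself stood at 169, 173 and 156 CPM in FaDu 1 to 3 and at 50.4, 34.7 and 39.6 CPM in shNSUN2 1 to 3 (log2 fold change -2.0, SE 0.16), without overlap. The edgeR adjusted p was 0.000526, and p was 0.1 by exact permutation (two-sided), below which 3 against 3 libraries cannot go. All 12 markers of a squamous carcinoma line were detected, with a sum of 5209 to 5377 CPM in FaDu and 4485 to 5424 CPM in shNSUN2. Of these 12, 3 rose and 7 fell at an edgeR adjusted p under 0.05. Of all genes tested, 8.54% rose and 9.97% fell. Marker lists of other tissues were low in sum, but 4 of 10 tested prostate genes rose and 1 fell (sum 30.7 to 33.9 CPM in FaDu, 50.6 to 67.9 in shNSUN2), 4 of 10 genes of smooth muscle and fibroblasts rose and 1 fell (19.9 to 23.4 and 13.5 to 31.5 CPM), and 4 of 6 of plasma cells and leukocytes rose (31.4 to 51.9 and 40.7 to 48.6 CPM). Without shNSUN2 1, smooth muscle and fibroblast genes called higher fell to 0 and plasma cell and leukocyte genes to 2. MSMB, KLK4, IGKC and ACTG2 were listed at 0 in every FaDu library and present in every shNSUN2 library (MSMB at 3.92, 0.488 and 0.281 CPM, IGKC at 2.87, 0.505 and 0.844 CPM), and PTPRC and NPY were at 0 in all 6. The part of these transcripts in the results below was not tested.

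The promoters show what many of these genes share beyond their function. RefSeq promoter windows, from 250 bases before to 50 bases after the annotated start, were found for 42 of the 48. The CHR letters TTTGAA or TTCGAA, searched on both strands, were in 32 of the 42 (76.2%), against 11.4% of 12281 promoters of genes tested here and 16.6% of 27305 promoters in all. The letters CCAAT, bound by NF-Y, were in 33 of 42 (78.6%), against 36.4% of the tested genes' promoters, and 27 of 42 (64.3%) held both, against 4.83%. The E2F letters TTTGGCGC or TTTCGCGC were in 3 of 42 (7.14%), against 2.03%. In 38 promoters of replication genes the order was different, with CHR letters in 2 and E2F letters in 10. A match describes the letters and is no proof of a site, and a missing match is no proof that a site is absent. The stretches below are the 120 bases before the start (GRCh38.p14, read 5′ to 3′ along the gene). They are shown for every member whose stretch held both CHR and CCAAT letters, in capitals, and at most 30 bases of annotated exon.
CDC20, chr1:43358861-43358980, plus strand: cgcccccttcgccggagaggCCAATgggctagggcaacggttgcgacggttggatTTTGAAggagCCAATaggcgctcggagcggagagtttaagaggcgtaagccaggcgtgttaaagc
ESPL1, chr12:53268179-53268298, plus strand: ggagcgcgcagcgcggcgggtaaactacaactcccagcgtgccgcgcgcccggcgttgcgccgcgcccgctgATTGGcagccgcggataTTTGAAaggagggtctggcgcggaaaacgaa
KIF11, chr10:92593010-92593129, plus strand: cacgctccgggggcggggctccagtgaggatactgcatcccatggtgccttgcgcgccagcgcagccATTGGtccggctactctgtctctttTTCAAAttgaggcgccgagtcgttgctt
KIF4A, chrX:70289984-70290103, plus strand: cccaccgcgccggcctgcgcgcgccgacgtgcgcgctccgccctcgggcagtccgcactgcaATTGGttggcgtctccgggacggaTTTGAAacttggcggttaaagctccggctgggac
ASPM, chr1:197146670-197146789, minus strand: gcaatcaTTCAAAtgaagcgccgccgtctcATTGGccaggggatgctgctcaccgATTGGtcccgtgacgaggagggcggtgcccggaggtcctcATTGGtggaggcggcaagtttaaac
ATTGG and TTCAAA are the same letters read on the other strand. In 4 of the 5 stretches the CHR letters lie nearer the start than at least 1 CCAAT box; in ASPM they lie farther out. With 6 libraries, CHR letters did not go with a larger difference. The 32 members with them had a median log2 fold change of 0.3, with 10 called, and the 10 without them 0.445, with 5 called. These values include shNSUN2 3, which lay far below the other hairpin libraries in many members with CHR letters, as described below. The comparison was not made without that library, so it does not settle whether the letters go with the difference.

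As a group the mitotic genes leaned towards higher levels in shNSUN2, by small amounts. Of the 48, 17 rose and none fell (edgeR quasi-likelihood test, Benjamini-Hochberg adjusted p under 0.05 over 19081 genes), where 8.54% of all genes tested rose and 9.97% fell. At an unadjusted p under 0.05, 23 members were higher and none lower; DESeq2 called 18 higher, where it called 9.34% of all genes it tested higher, and none lower. The median log2 fold change of the 48 was 0.316, against -0.00695 over all genes, and the members ran from -0.43 to 0.99. For scale, 36 of 44 genes of replication licensing and the replication fork rose, with a median of 0.917, and 31 genes commonly used as expression references, such as ACTB and GAPDH, had a median of 0.276 with 6 called higher. The difference between these lists was not tested. Leaving out 1 library moved the count. It fell to 4 without FaDu 1 (3.1% of all genes called higher), to 4 without FaDu 2 (2.38%) and to 4 without FaDu 3 (2.51%). It was 9 without shNSUN2 1 (4.46%), 15 without shNSUN2 2 (8.31%) and 33 without shNSUN2 3 (10.5%). ESPL1, KIF18B and SPC25 were called in all 17 fits made. Log2 fold changes above 0 were found in 44 members with 6 libraries, in 37 without shNSUN2 1, in 38 without shNSUN2 2 and in 45 without shNSUN2 3. Over all genes the shares were 49.6%, 48.5%, 48.7% and 48.6% in the same order. Of the 31 reference genes 27, 27, 28 and 25 were above 0, so this lean is not particular to mitotic genes.

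Many members that were not called show a split between the hairpin libraries. In 25 members, the 17 called among them, all 3 shNSUN2 libraries lay above every FaDu library (52.1%, against 20.3% of all genes tested). The same was seen in 15 of the 31 reference genes and 40 of the 44 replication genes, so it is not particular to mitotic genes. In no member did all 3 lie below, which 22.1% of all genes did. In 17 other members, all outside the 17 called, shNSUN2 1 and 2 lay above every FaDu library while shNSUN2 3 lay below every one (35.4%, against 3.73% of all genes tested). A further 2 members, CDK1 and KIF11, had replicate 3 inside the FaDu range, as 2.62% of all genes did. Of the remaining 4, CDC25B was below FaDu in shNSUN2 1 and 2 with replicate 3 inside its range (2.96% of all genes), and CDC25C, BIRC5 and CENPE had no common pattern. The summed level of the 48 was 5290.1, 5422 and 5296 CPM in FaDu 1 to 3 and 7316, 6847 and 6061 CPM in shNSUN2 1 to 3.

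**Figure D1:**
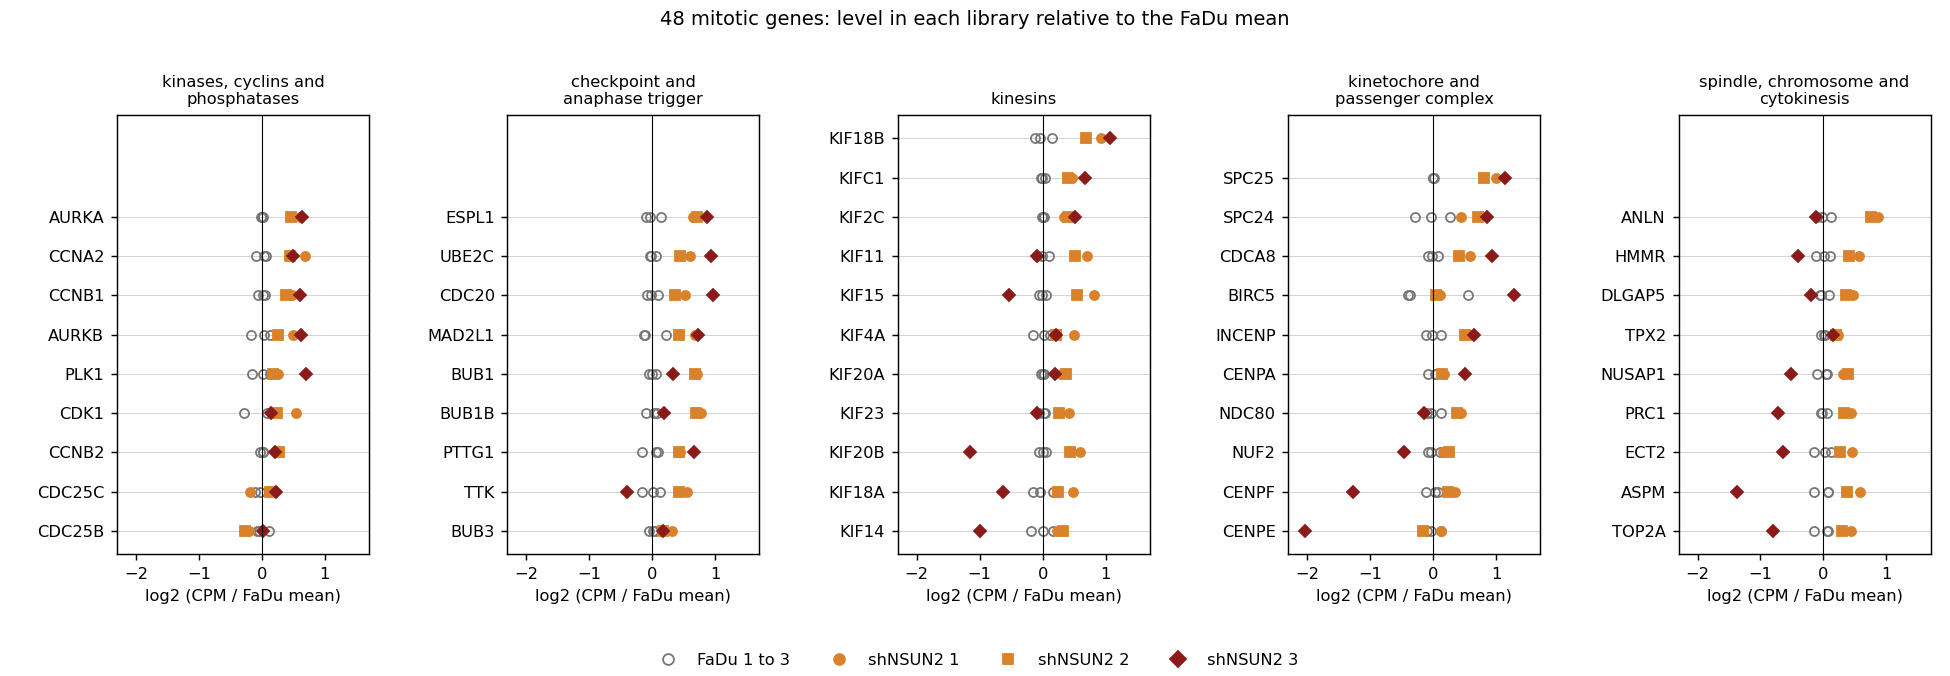
CPM of each of the 48 genes in each library, as log2 of its ratio to the mean of the 3 FaDu libraries (x axis), in 5 panels by role; open circles are FaDu, orange circles and squares shNSUN2 1 and 2, dark diamonds shNSUN2 3. Replicates 1 and 2 sit to the right of the FaDu circles for 44 genes, while replicate 3 lies left of every FaDu circle for 17 of these, 8 of them in the panel of spindle, chromosome and cytokinesis genes.

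Of the 9 kinases, cyclins and phosphatases that drive entry, 3 rose. AURKA, the Aurora kinase of the centrosome and spindle poles, had 99.1, 97.0 and 98.8 CPM in FaDu and 150.0, 136 and 152 CPM in shNSUN2 (log2 fold change 0.57, SE 0.11, edgeR adjusted p = 0.011). Its lowest hairpin library lay well above the highest FaDu library. Cyclin A2, CCNA2, which partners CDK2 and CDK1 from S phase to early mitosis, had 92.0, 94.3 and 84.6 CPM in FaDu and 145, 123 and 127 CPM in shNSUN2 (log2 fold change 0.55, SE 0.12, adjusted p = 0.018). Cyclin B1, CCNB1, the mitotic partner of CDK1, went from 249 ± 9.29 to 350.0 ± 26.1 CPM (SD, n = 3; log2 fold change 0.49, SE 0.11, edgeR adjusted p = 0.0182). None of the 3 was called without FaDu 1, 2 or 3, and CCNA2 was not called without shNSUN2 1 either.

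The other 6 of this group did not pass. Cyclin B2, CCNB2, was the steadiest within its groups, with 137, 142 and 142 CPM in FaDu and 164, 169 and 163 CPM in shNSUN2, and the groups did not overlap (log2 fold change 0.23, SE 0.10, edgeR adjusted p = 0.139). PLK1, the Polo-like kinase, had 181, 149 and 168 CPM in FaDu and 198, 187 and 269.6 CPM in shNSUN2, and AURKB, the kinase of the passenger complex, 56.6, 45.8 and 52.6 against 73.1, 61.7 and 79.7 CPM. In both the hairpin libraries were higher without overlap, with replicate 3 the highest. CDK1, the mitotic kinase, overlapped between groups, at 47.4, 64.8 and 60.7 against 84.1, 67.7 and 63.5 CPM. The CDC25 phosphatases, which remove inhibitory phosphates from CDK1, were not higher: CDC25B had a log2 fold change of -0.14 (SE 0.13) and CDC25C of 0.07 (SE 0.15), the latter turning negative under upper-quartile scaling and without shNSUN2 3. Levels per kilobase of exon, taken over all annotated exons of a gene, allow only a rough comparison between genes. On this scale FaDu levels in this group ran from 5.53 CPM per kb for CDC25C to 97.4 for CCNB1.

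The checkpoint and the anaphase trigger held the most calls, with 7 of 9 genes higher. ESPL1, the separase protease that cuts cohesin (chromosome 12, 53268299 to 53293643, GRCh38), had 83.4, 74.0 and 70.7 CPM in FaDu and 119, 124 and 139.6 CPM in shNSUN2 (log2 fold change 0.75, SE 0.12, edgeR adjusted p = 0.0072). Both groups were well apart, and its promoter is among those shown above. UBE2C, the E2 enzyme of the APC/C, had 105, 97.6 and 98.7 CPM against 152, 136 and 191 CPM (log2 fold change 0.67, SE 0.15, adjusted p = 0.0186). BUB1, a checkpoint kinase of the kinetochore, had 70.4, 75.6 and 72.1 CPM against 119, 116 and 91.1 CPM (log2 fold change 0.58, SE 0.14, adjusted p = 0.0235).

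UBE2C and BUB1 differ in which hairpin library stood out: replicate 3 was the highest for UBE2C and the lowest for BUB1. CDC20, the APC/C activator that the checkpoint restrains, followed UBE2C, with 253, 235 and 224 CPM in FaDu and 340.3, 306 and 463 CPM in shNSUN2 (log2 fold change 0.64, SE 0.16). Securin, PTTG1, the inhibitor of separase, and MAD2L1, the checkpoint protein that binds CDC20, rose by log2 fold changes of 0.51 and 0.62. BUB1B, the BubR1 subunit, had 86.1, 88.4 and 78.4 CPM against 144, 136 and 95.7 CPM, with an edgeR adjusted p of 0.0499. BUB3, the partner of BUB1 and BubR1, did not pass at 0.22 (SE 0.11), although its groups did not overlap. TTK, the Mps1 kinase at the top of the checkpoint, did not pass either, with 48.8, 59.6 and 55.1 CPM in FaDu and 80.3, 73.3 and 41.1 CPM in shNSUN2: replicate 3 was below every FaDu library. Calls in this group numbered 1, 2 and 1 without FaDu 1, 2 or 3, where 3.1%, 2.38% and 2.51% of all genes were called higher. They numbered 2 without shNSUN2 1 (4.46% of all genes), 5 without shNSUN2 2 (8.31%) and 8 without shNSUN2 3 (10.5%). ESPL1 was called in each of these.

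Among the 11 mitotic kinesins, 3 rose. KIF18B, which restrains astral microtubules (chromosome 17, 44924709 to 44947711), had 41.4, 36.4 and 34.5 CPM in FaDu and 70.8, 60.5 and 78.9 CPM in shNSUN2 (log2 fold change 0.91, SE 0.14, edgeR adjusted p = 0.00605), a larger difference than in any other kinesin. KIFC1, the minus-end motor that clusters spindle poles, had 105, 99.8 and 102 CPM against 141, 136 and 163 CPM (log2 fold change 0.52, SE 0.12, adjusted p = 0.02). KIF2C, the microtubule depolymerase at centromeres, was nearly constant in FaDu at 226, 231 and 228 CPM and reached 288, 302 and 328 CPM in shNSUN2 (log2 fold change 0.42, SE 0.10, adjusted p = 0.0268). In all 3 the hairpin libraries stood above FaDu without overlap. Without FaDu 1, 2 or 3 only KIF18B was called in this group.

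The other 8 kinesins did not pass with 6 libraries. In 5 of them replicates 1 and 2 lay above every FaDu library and replicate 3 below, as in 3.73% of all genes tested. KIF20B, a long motor of late cytokinesis, had 28.7, 31.1 and 29.9 CPM in FaDu and 44.9, 40.6 and 13.5 CPM in shNSUN2. KIF15, which backs up KIF11 in spindle assembly, had 22.4, 23.1 and 24.2 against 40.7, 34 and 16.1 CPM, and KIF14, a motor of cytokinesis, 44.8, 57.1 and 51.2 against 59.5, 63.5 and 25.5 CPM. In these 3, replicate 3 held 31.5%, 43.1% and 41.4% of the mean of replicates 1 and 2. KIF18A, which dampens chromosome movements, and KIF23, the motor of centralspindlin, showed the same order, KIF23 less steeply at 74.4%. KIF11, the motor that pushes spindle poles apart, had 68.9, 73.2 and 79.0 against 121, 106 and 69.5 CPM. KIF4A and KIF20A had all hairpin libraries above FaDu but small differences, with log2 fold changes of 0.31 (SE 0.14) and 0.28 (SE 0.10). Without shNSUN2 3, where 10.5% of all genes were called higher, 8 of the 11 kinesins rose: KIF11, KIF15, KIF18B, KIF20A, KIF20B, KIF23, KIF2C and KIFC1.

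The kinetochore and passenger complex held the highest and the lowest fold change of all 48. SPC25, a subunit of the NDC80 complex that grips microtubules (chromosome 2, 168834132 to 168913371), had 11.7, 11.7 and 11.8 CPM in FaDu and 23.6, 20.6 and 26.0 CPM in shNSUN2 (log2 fold change 0.99, SE 0.14, edgeR adjusted p = 0.00386). Its level doubled, to 199% of the FaDu mean. SPC24, its dimer partner, rose by 0.68 (SE 0.19, adjusted p = 0.0392), from 15.2 ± 2.97 to 24.5 ± 3.44 CPM (SD, n = 3), but was called in only 9 of the 17 fits. The fits that lost it include those without FaDu 2, without FaDu 3 and without any 1 of the shNSUN2 libraries. The other dimer of the same complex did not pass: NDC80 had 46.7, 54.2 and 48.8 against 68.2, 65.1 and 45.2 CPM, and NUF2 37.4, 42.4 and 38.6 against 44.1, 47.2 and 28.7 CPM. So both SPC24 and SPC25 were above FaDu in every hairpin library, whereas NDC80 and NUF2 were above it in replicates 1 and 2 and below it in replicate 3. Per kilobase of exon, FaDu levels of NDC80, NUF2, SPC25 and SPC24 were 13.9, 11.7, 6.38 and 5.37 CPM per kb.

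Of the passenger complex, which carries Aurora B to centromeres and the midzone, INCENP and CDCA8 rose. INCENP, the scaffold, had 125, 133 and 147 CPM in FaDu and 203, 193 and 211 CPM in shNSUN2 (log2 fold change 0.58, SE 0.11, edgeR adjusted p = 0.012), and CDCA8, borealin, had 53.3, 49.8 and 47.5 against 75.1, 66.6 and 95.9 CPM (log2 fold change 0.66, SE 0.16, adjusted p = 0.0248). BIRC5, survivin, was erratic in both groups, with 91.7, 47.6 and 48.9 CPM in FaDu and 67.9, 65.1 and 153 CPM in shNSUN2. Its fold change of 0.60 (SE 0.41) did not pass, and was 0.09 (SE 0.33) without shNSUN2 3. INCENP was not called without FaDu 1 or 2, and CDCA8 not without FaDu 1, 2 or 3 or shNSUN2 1.

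Of the 3 centromere proteins, CENPE and CENPF were far lower in shNSUN2 3 than in the other hairpin libraries, and CENPA was higher there. CENPE, a very long kinesin of the outer kinetochore (chromosome 4, 103105806 to 103198409), had 22.4, 26.1 and 23.3 CPM in FaDu and 26.1, 21.4 and 5.88 CPM in shNSUN2. Its log2 fold change of -0.43 was the lowest of the 48 but had an SE of 0.48 (edgeR adjusted p = 0.587), and it was -0.01 (SE 0.13) without shNSUN2 3. CENPF, a large protein of the kinetochore corona, had 170.1, 193 and 186 against 234, 217 and 75.4 CPM, a fold change of -0.06 (SE 0.39) that became 0.30 (SE 0.08) and was called without shNSUN2 3. CENPA, the histone H3 variant that marks centromeres, had 13.3, 13.5 and 12.3 against 14.7, 14.4 and 18.6 CPM and did not pass.

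No gene of the spindle, chromosome and cytokinesis group passed with 6 libraries. Without shNSUN2 3, 8 of 9 were called higher, against 10.5% of all genes. Log2 fold changes above 0, found in all 9 with 6 libraries, were left in 5 without shNSUN2 1 and in 5 without shNSUN2 2. ANLN, anillin, the scaffold of the cleavage furrow, had 195, 228 and 207 CPM in FaDu and 382, 355 and 194 CPM in shNSUN2 (log2 fold change 0.56, SE 0.24, edgeR adjusted p = 0.138; 0.81, SE 0.09, and called without shNSUN2 3). DLGAP5, a spindle protein also known as HURP, had 86.7, 96.5 and 88.2 against 125, 116 and 79.2 CPM (log2 fold change 0.24, SE 0.18, adjusted p = 0.389). TPX2, the activator of Aurora A, was the only one of the 9 in which replicate 3 stayed above FaDu, with 446, 439 and 426 against 512, 502 and 488 CPM (log2 fold change 0.20, SE 0.09, adjusted p = 0.189), and the only one not called without shNSUN2 3.

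TOP2A, the topoisomerase that untangles sister chromatids, had 365, 425 and 419 CPM in FaDu and 547, 493 and 230.1 CPM in shNSUN2. PRC1, the bundler of the central spindle, had 287, 270.1 and 268 against 373, 346 and 168 CPM, and ECT2, the activator of RhoA in the furrow, 225, 255 and 270.4 against 344, 300.5 and 159.8 CPM. ASPM, a spindle pole protein with a very long transcript, had 72.7, 84.2 and 84.2 against 120, 104 and 31.0 CPM. In all 4, replicates 1 and 2 were above and replicate 3 below the whole FaDu range, and their 6-library log2 fold changes of 0.07 to 0.10 average over these opposite values; that of TOP2A turned negative under upper-quartile scaling. HMMR and NUSAP1, both microtubule-binding proteins of the spindle, showed the same order, with replicate 3 at 54.0% and 54.9% of the mean of the other hairpin libraries. TPX2, at 121 CPM per kb of exon in FaDu, was the most abundant of the group on that scale and ASPM, at 7.39, the least.

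**Figure D2:**
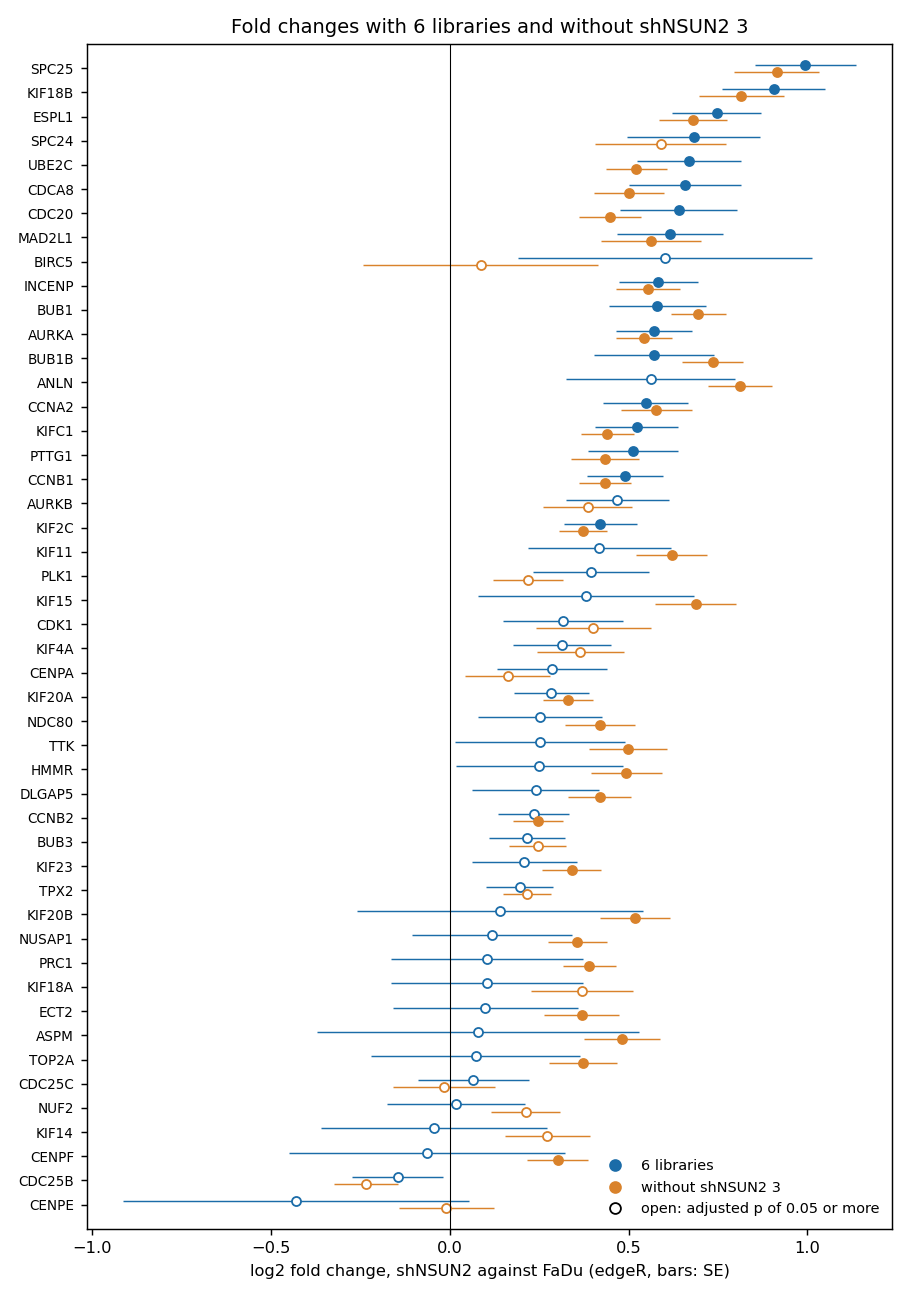
Log2 fold change of shNSUN2 against FaDu for each of the 48 genes (edgeR; bars are the SE), with all 6 libraries (blue) and without shNSUN2 3 (orange); filled points have an adjusted p under 0.05. With 6 libraries 17 genes are filled and without shNSUN2 3 there are 33, 16 of them shared; ANLN, KIF15, KIF20B and ASPM, with long blue bars, are among the 17 that are filled only in orange.

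The standing of shNSUN2 3 went with base composition and length. The log2 difference of replicate 3 from the mean of replicates 1 and 2 ran from -1.99 (CENPE) to 1.20 (BIRC5) over the 48 genes. Across these 48 genes, which share the same libraries and are not independent, it had a Spearman correlation of 0.792 with the GC content of the longest transcript and of -0.649 with exonic length. Over 19033 tested genes the same correlations were 0.429 and -0.249. The 17 discordant members had a median GC content of 39.1% and a median exonic length of 5499 bases, and the 25 with all hairpin libraries above FaDu 48.4% and 3345 bases.

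Split by GC content into 16, 16 and 16 genes, the members gave 2, 5 and 10 calls from low to high GC with 6 libraries, and 11, 11 and 11 without shNSUN2 3. Median log2 fold changes in the same order were 0.191, 0.269 and 0.553 with 6 libraries and 0.42, 0.361 and 0.438 without shNSUN2 3. Of the 16 members with 34.2% to 40.1% GC, 11 were discordant (68.8%), against 11.7% of 2666 tested genes in that GC range. The median difference of replicate 3 was -0.903 in these 16 members and -0.357 in all genes of the range. At 48.1% to 59.6% GC it was 0.255 in the members and 0.22 in 7038 tested genes. A fit that took the trends with GC content and length out of each library called 25 members, including all 17 of the main fit. From low to high GC these were 5, 7 and 13 calls, so a rise with GC content remained. Median log2 fold changes were 0.267, 0.318 and 0.529. In that fit 14.3% of all genes were called higher. It added AURKB, PLK1, CDK1, CCNB2, BUB3, KIF11, KIF20A and ANLN, while CENPE, ASPM, KIF20B and CENPF, the members in which replicate 3 lay lowest against the other hairpin libraries, were not called. The part of base composition and length in the position of this library was not tested. Without shNSUN2 3, 33 members were called, where 10.5% of all genes were called higher, and SPC24 was the only call lost.

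**Figure D3:**
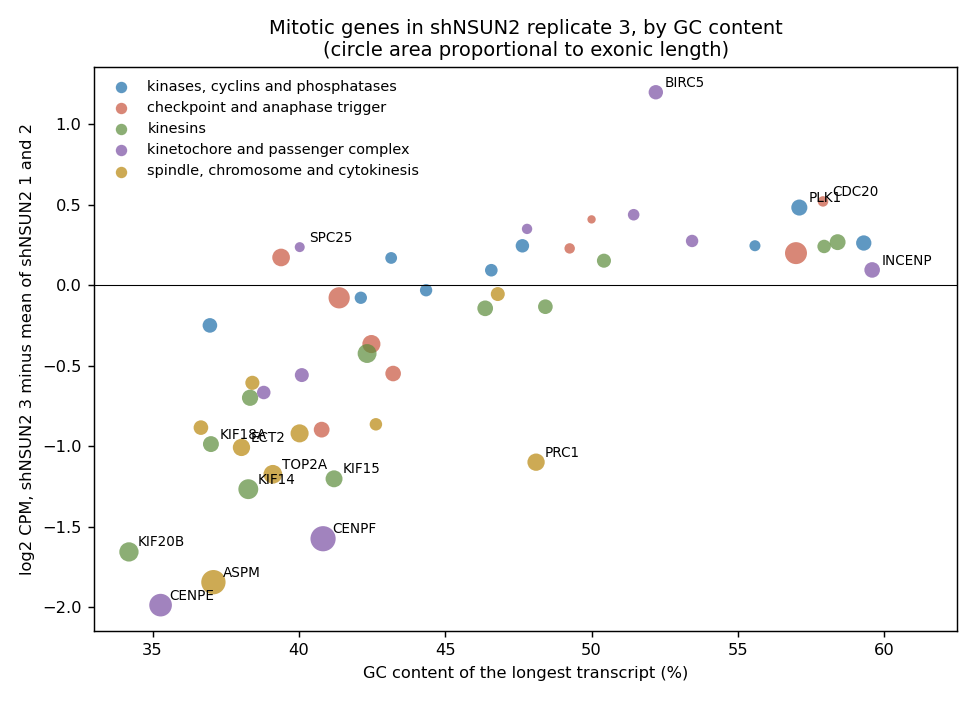
Log2 CPM of shNSUN2 3 minus the mean of shNSUN2 1 and 2 (y axis) against the GC content of the longest transcript in percent (x axis) for the 48 genes, coloured by role, with circle area proportional to exonic length. Long, GC-poor genes such as CENPE, ASPM and KIF20B lie lowest, GC-rich genes such as CDC20 and PLK1 lie above 0, and BIRC5 is highest at 1.20.

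The wider mitotic machinery was followed in 118 further genes on 5 lists, of which 32 rose and 4 fell. Of all genes tested, 8.54% rose and 9.97% fell, and of the 31 reference genes 6 rose and 1 fell. Of 17 APC/C genes, 3 rose, led by UBE2S, the E2 enzyme that extends ubiquitin chains (187 to 214 CPM in FaDu and 287 to 511 in shNSUN2, log2 fold change 0.88, SE 0.21), and the catalytic subunit ANAPC2 (0.68, SE 0.17). No APC/C gene was called without FaDu 1, without FaDu 2 or without FaDu 3, and ANAPC2 was not called without shNSUN2 1 either. Of 21 cohesin and condensin genes, 4 rose with 6 libraries and 14 without shNSUN2 3. NCAPH, the kleisin of condensin I, went from 61.7 ± 2.55 to 122 ± 7.54 CPM (SD, n = 3; log2 fold change 0.99, SE 0.11, edgeR adjusted p = 0.00179), and CDCA5, sororin, which protects cohesin, rose by 0.93 (SE 0.15). Of 34 further kinetochore subunits, 12 rose and 1 fell. ZWINT, which links the KNL1 protein to the checkpoint, rose from 35.3 ± 1.57 to 89.4 ± 10.1 CPM (log2 fold change 1.34, SE 0.13, adjusted p = 0.000916) and CENPM by 1.14 (SE 0.17). BOD1 fell by 0.49 on the log2 scale.

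Of 28 regulators of mitotic entry and exit, 6 rose and 1, the kinase NEK6, fell. CDC25A, the phosphatase that also acts at the start of S phase, had 12.5, 15.9 and 14.6 CPM in FaDu and 44.9, 30.0 and 55.9 CPM in shNSUN2 (log2 fold change 1.61, SE 0.23, edgeR adjusted p = 0.00398), against -0.14 and 0.07 for its relatives CDC25B and CDC25C. GTSE1, a microtubule protein of G2 and mitosis, rose by 0.69 (SE 0.12) but was not called without FaDu 2 or FaDu 3. Of 18 transcription factors of the mitotic programme, 7 rose and 2 fell. Genes known mainly as repressors went both ways: E2F5 and RBL2 fell, by 0.61 and 0.59 on the log2 scale, while E2F4, RBL1 and E2F8 rose, by 0.60, 0.85 and 0.84. MYBL2, which encodes B-MYB, had 164, 131 and 119 CPM in FaDu and 311, 293 and 449 CPM in shNSUN2 (log2 fold change 1.35, SE 0.20, adjusted p = 0.00432), and the SE of E2F8 was 0.14. FOXM1 had 107, 93.0 and 82.8 against 114, 113 and 144 CPM; its groups did not overlap, and its log2 fold change of 0.39 (SE 0.15) did not pass. Over the 5 lists, 17 of 118 genes were discordant in the way described for replicate 3, 8 of them among cohesin and condensin. The same held for 3.73% of all genes tested, for 1 of the 31 reference genes and for 1 of the 44 replication genes. Calls over the 5 lists fell to 11, 8 and 8 higher without FaDu 1, 2 or 3 (3.1%, 2.38% and 2.51% of all genes). They were 18 higher without shNSUN2 1 (4.46%). In these fits none was lower, where 4.38% to 5.95% of all genes were. Without shNSUN2 3 they numbered 54 higher and 6 lower (10.5% and 11% of all genes).

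**Figure D4:**
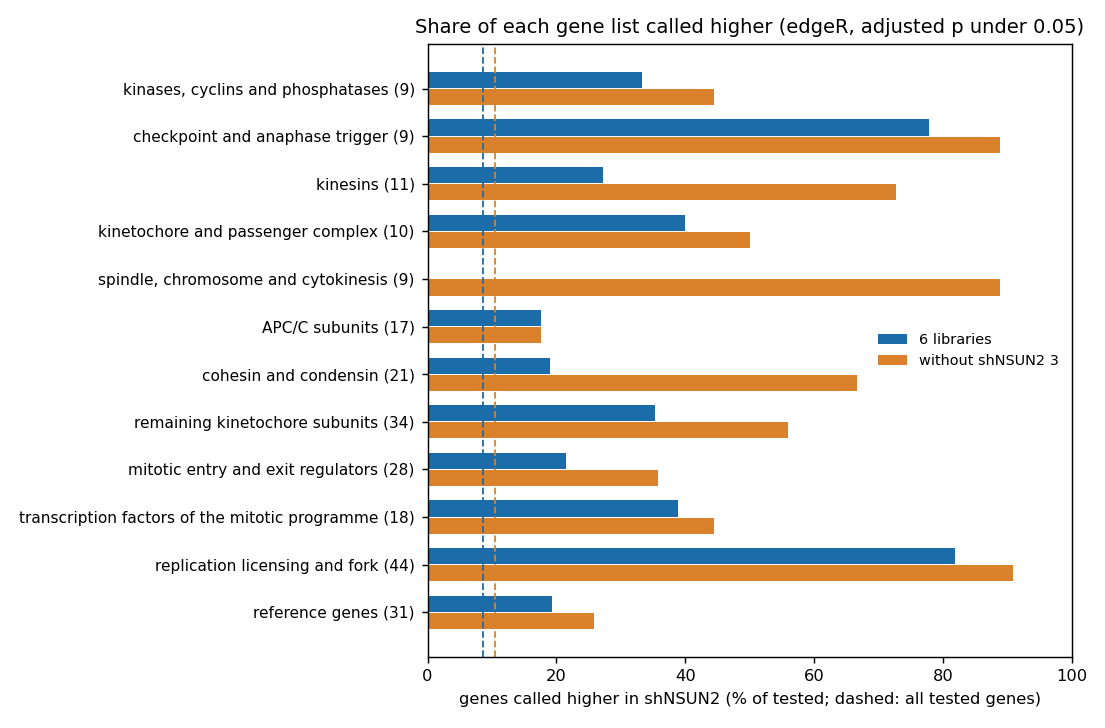
Share of tested genes called higher in shNSUN2 (x axis, percent; edgeR adjusted p under 0.05) for the 5 groups of the 48 genes, the 5 further mitotic lists, replication genes and reference genes (number tested in brackets), with 6 libraries (blue) and without shNSUN2 3 (orange); dashed lines give all tested genes, 8.54% and 10.5%. The spindle, chromosome and cytokinesis group goes from 0 of 9 to 8 of 9, while replication genes stand at 36 and 40 of 44.

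Overlap with other genes was read from the annotation only. Exons of 18 of the 48 genes overlap another annotated gene, among them 6 of the 17 called. No source used here says whether strand was kept, so reads in the overlaps cannot be assigned to 1 partner. Pseudogenes named after them exist for 8. The close copy KIF4B stood at 0.385 to 1.39 CPM, and the PTTG1 copies PTTG2 and PTTG3P at 0 to 0.0887 CPM.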

How the data were processed

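The authors deposited 1 table of estimated counts for 58825 Ensembl genes in 6 libraries; its whole numbers were used as they stand. HISAT2 2.0, StringTie 1.3.0 and Bowtie 0.12.2 appear, with no role, in the submitters' processing notes, along with a mouse build (mm8) although the identifiers are human. Which human build and annotation were used is not stated there. The value 4 was over-represented in every library, by 3.25 to 3.81 times its neighbours 3 and 5 on average. Symbols were found for 58817 identifiers, and positions, exons and GC content come from GENCODE 29 (GRCh38). The test was edgeR 4.0.16 (R 4.3.3): glmQLFit and glmQLFTest with robust estimation, TMM, filterByExpr (minimum count 10, minimum total 15), group as the only term, two-sided. Calls needed an adjusted p (Benjamini-Hochberg) under 0.05. The SE is the log2 fold change divided by the square root of F. Log2 CPM differences between libraries used a pseudocount of 0.1. The procedure was tested on simulated data.

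The members and lists were chosen with earlier results of these data known. Named in full were the 3 members with the smallest adjusted p in each group, the highest and lowest fold change, the 2 genes with the smallest adjusted p in each further list, FOXM1, MYBL2 and NSUN2; other genes, named for their role, direction or library pattern, were chosen after their values were seen. Alternatives were other scalings, filters, DESeq2 1.42.0, limma 3.58.1 voom, a replicate block, per-library lowess trends (span 0.3) for GC content and exonic length, and leaving out each library. Promoter sequences are RefSeq's (GRCh38.p14).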

Additional observations from a re-analysis of the deposited data

How the results depend on the processing

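The count of 17 mitotic genes higher in shNSUN2 ranged from 4 to 33 when 1 library was left out, and none was called lower in any of these fits. Their median log2 fold change ranged from 0.249 to 0.42. The replicate block called 6 higher, where it called 5.08% of all genes higher, against 8.54% in the main fit. Joined with the GC and length correction, the block called 17 members higher and 9.36% of all genes. The shared numbers are not known to pair the libraries: the correlation of deviations from the group means was -0.0648, 0.0555 and -0.0257 for numbers 1, 2 and 3, and FaDu 1 correlated best with shNSUN2 3 (0.114). Over the 5 further lists, the 32 higher genes ranged from 8 to 54 and the 4 lower from 0 to 6 with 1 library left out. They were 21 and 0 with the replicate block (5.08% of all genes higher and 7.34% lower). With the block and the GC and length correction they were 38 and 1 (9.36% and 8.47%). With that correction alone 50 were higher (14.3% of all genes). With upper-quartile scaling 6 were lower (11.6% of all genes), and with the stricter filter 6 (14.5%). NSUN2 was called lower in all 17 fits. Of 27 other genes with full statistics, none changed sign in the 16 alternative fits: 381 of 432 comparisons kept their call, 46 lost it and 5 gained one. Most of the 27 were picked for a small adjusted p in the main fit of these data, so a kept sign says little. Of the 48 members, 35 were above 0 in all 17 fits. ASPM, KIF20B, NUF2 and TOP2A turned negative in limma voom and with the replicate block, and TOP2A, NUF2 and CDC25C under upper-quartile scaling. ASPM, KIF20B, NUF2, TOP2A, PRC1, ECT2, KIF18A and NUSAP1 turned negative in at least 1 of the fits without shNSUN2 1 or without shNSUN2 2. KIF14 and CENPF, below 0 with 6 libraries, turned positive without shNSUN2 3. Scaling moved the median of all genes from -0.00695 to at most -0.0868. The effect of depth on these calls was not tested.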
